A study of Nicotiana tabacum with 18 samples.

Results

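The genes described here are those whose transcripts stood far above both parents in leaves of the tobacco hybrid Va116×GDH94. A gene was taken when, on the log2(FPKM + 1) scale, the mean of the 3 hybrid libraries lay at least 1 above the mean of Va116 and at least 1 above the mean of GDH94, and when the lowest hybrid library lay above all 6 parent libraries. The table names no unit, and its values were taken to be FPKM. FPKM counts fragments per kilobase of transcript, scaled to the mapped fragments of the library, and a difference of 1 on this scale is a doubling of FPKM + 1. The rule was met by 213 of the 69500 genes measured, and 10 of them were left out because the study itself had already listed them as photosynthesis or qRT-PCR genes. The remaining 203 genes, 0.292% of the table, are called the members below. They were chosen by the measured FPKM of Va116, GDH94 and Va116×GDH94, so their levels in those 9 libraries are given as a description and were not tested.

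The study took leaves of field-grown Nicotiana tabacum at 45 days after transplanting, from 6 genotypes in 3 biological replicates each. The first cross comprised the parents Va116 and GDH94 and their F1 hybrid Va116×GDH94, and the second comprised the parents K326 and GDH88 and their F1 hybrid K326×GDH88. No treatment is named for any genotype. Leaves of several plants of a plot were mixed for a replicate, so no value belongs to a single plant. The 9 libraries of the second cross played no part in the choice of the members, and all tests reported below were made there.

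Heterosis is the advantage of an F1 hybrid over its parents. The study calls expression overdominant when the hybrid lies above both parents (up-regulated) or below both (down-regulated). It sorts the other differing genes as additive or dominant. Cultivated tobacco is an allotetraploid, so many genes exist as near-identical copies inherited from its diploid ancestors, and reads can be divided between such copies in ways that differ from gene to gene. A leaf holds photosynthetic, epidermal and vascular cells, and in RNA from whole leaf more cells of a type cannot be told apart from more RNA per cell.

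The summed FPKM of a library ranged from 887628 to 1062588, and the correlation of log2 values was 0.975 to 0.989 between replicates and 0.929 to 0.979 between genotypes. No libraries held identical values. Of the 3 leaf genes used to check the tissue, NtLhcb1 and NtLhcb2, which encode light-harvesting proteins, ranged from 9.36 to 75.3 and from 25.6 to 89.9 FPKM, and NtrbcL, for the large subunit of Rubisco, ranged from 1.07 to 13.7 FPKM. All 3 were above 0 in every library, which is a weak check of the tissue for NtrbcL at such low values.

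The members were mostly moderate transcripts in the hybrid and low ones in its parents. Their median level was 9.27 FPKM in the hybrid, 2.42 FPKM in its parent Va116 and 2.44 FPKM in its parent GDH94. The hybrid exceeded the higher parent by a median of 1.26 on the log2 scale, with 58 members at 1.5 or more, 28 at 2 or more and 7 at 3 or more, up to 4.19. Between Va116 and GDH94, 7 members differed by 1 or more. The rule held both parents well under the hybrid, and low values leave little room for a difference on this scale. The share over all genes was not computed, so this count says little about the parents.

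At the upper end of the level scale stood Nitab4.5_0008414g0050, which carries no description. Its 3 libraries held 1389, 1290 and 1390 FPKM in Va116×GDH94, whereas Va116 held 621, 634 and 625 and GDH94 held 644, 673 and 653. In the second cross it stood at 1051, 1038 and 1182 FPKM in K326, at 522.9, 515.7 and 504.6 in GDH88 and at 813, 995 and 777 in K326×GDH88. The hybrid of the second cross thus lay between its parents without overlapping either, although its first-cross counterpart lay above both. Only 12 members reached 100 FPKM in Va116×GDH94.

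**Figure D1:**
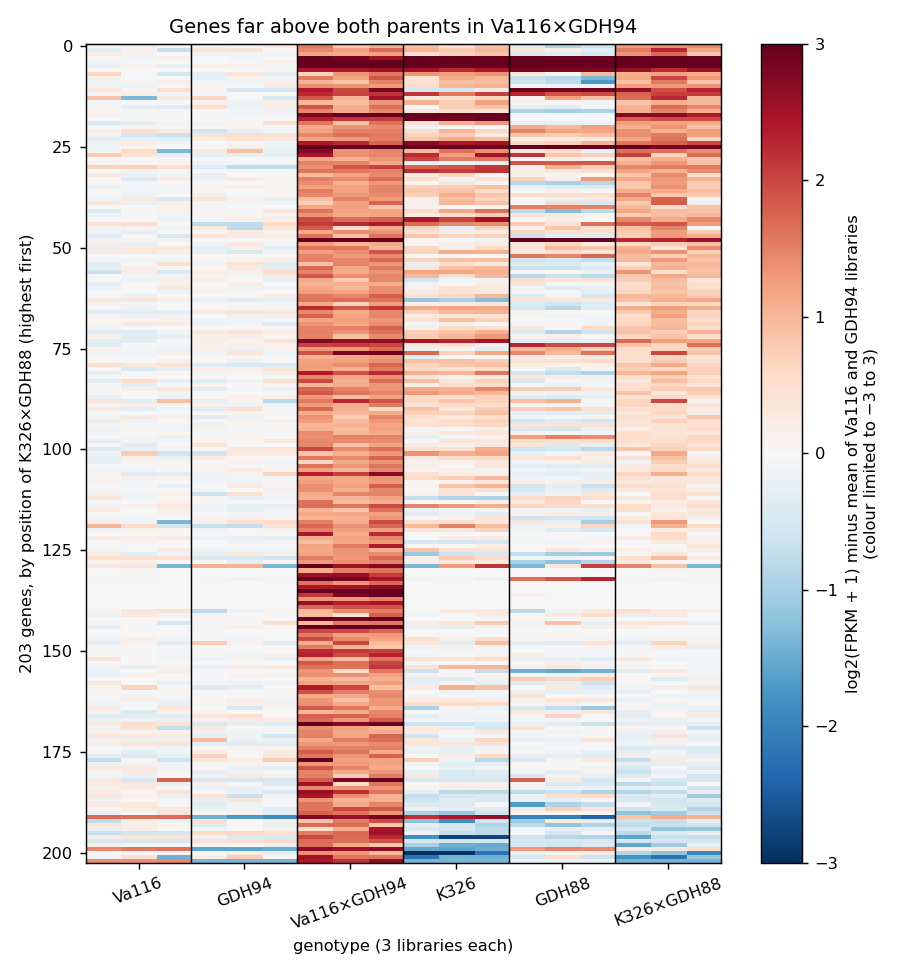
Each row is 1 of the 203 members and each column 1 of the 18 libraries, and colour gives log2(FPKM + 1) minus the mean of the Va116 and GDH94 libraries. Rows are ordered by how near K326×GDH88 comes to Va116×GDH94. The 3 Va116×GDH94 columns are high throughout by the rule of choice, while K326, GDH88 and K326×GDH88 are high in some rows and near the first-cross parents in others.

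Across all 6 genotypes Va116×GDH94 held the highest mean for 181 of the 203 members, K326 for 11, GDH88 for 7 and K326×GDH88 for 4. For 135 members the 3 Va116×GDH94 libraries lay above all 15 other libraries. The lowest mean was in Va116 for 61 members, in GDH88 for 54, in GDH94 for 48, in K326 for 24 and in K326×GDH88 for 16. The order of the median levels was Va116×GDH94 (9.27 FPKM), K326×GDH88 (4.52), K326 (4.10), GDH88 (2.72), GDH94 (2.44) and Va116 (2.42). The rule chose genes high in Va116×GDH94 and low in its parents, so these ranks have no background.

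A position was computed for each genotype of the second cross, where 0 is the higher first-cross parent and 1 is Va116×GDH94 on the log2 scale. The median position was 0.11 for K326, -0.06 for GDH88 and 0.30 for K326×GDH88. K326×GDH88 lay nearer to Va116×GDH94 than to the higher first-cross parent for 68 members, K326 for 48 and GDH88 for 21. In contrast, GDH88 lay under the higher first-cross parent for 121 members, K326 for 68 and K326×GDH88 for 64. Both ends of this scale are values that the rule used, with the hybrid chosen high and its parents low. A genotype outside the choice would tend to fall between them, so these positions and counts have no background.

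**Figure D2:**
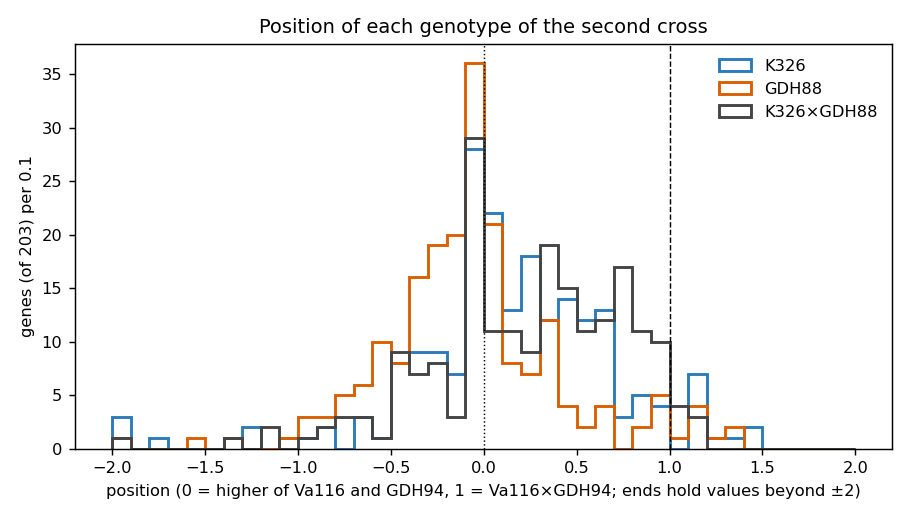
The x axis gives the position of a genotype mean, from the higher of Va116 and GDH94 (0, dotted) to Va116×GDH94 (1, dashed), and the y axis counts the 203 members in steps of 0.1. The medians are 0.11 for K326, -0.06 for GDH88 and 0.30 for K326×GDH88, and the K326×GDH88 line has more genes between 0.5 and 1 than the GDH88 line. Both ends of the scale are values that the rule used.

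Genes just inside and just outside the limit had near-equal values. Inside, the WRKY gene Nitab4.5_0012161g0030 exceeded the higher parent by 1.002 at hybrid, Va116 and GDH94 means of 6.09, 2.26 and 2.53 FPKM. Outside, Nitab4.5_0012208g0010, which has a DUF4228 domain, stood at 0.9997 at hybrid, Va116 and GDH94 means of 6.12, 2.22 and 2.58 FPKM. A further 41 of the 254 genes past the fold limit were not taken because hybrid and parent libraries overlapped.

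Whether the members also distinguish the genotypes of the second cross was tested with limma, and a gene was called when its Benjamini-Hochberg adjusted p was under 0.05 and its log2 difference was 1 or more in size. Of the 203 members 164 had a mean of 1 FPKM or more in K326, GDH88 or K326×GDH88 and were tested, and 39 were too low there. K326 and GDH88 differed for 53 of the 164 members, where 1.84% of all 35438 genes tested were called. K326 was higher for 36 members, with 1.2% of all genes called in that direction. GDH88 was higher than K326 for 17 members, with 0.635% of all genes called. A mean of 1 FPKM or more in all 3 genotypes was seen for 130 of the tested members, and among these K326 was higher for 25 and GDH88 for 7. The share called among all genes that meet this stricter limit was not computed, so these counts have no background. The other 34 members passed the filter through only 1 or 2 genotypes, so a difference between genotypes was in part a condition of being tested.

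The hybrid K326×GDH88 differed from GDH88 for 41 members, where 2.33% of all genes were called, and from K326 for 14, where 1.16% were. It was higher than GDH88 for 33 members (1.4% of all genes) and lower for 8 (0.934%). Relative to K326 it was higher for 10 members (0.708%) and lower for 4 (0.451%). These comparisons share libraries, so the members called in them are not independent. Among the 130 members at 1 FPKM or more in all 3 genotypes K326×GDH88 was higher than GDH88 for 24 and lower for 2. It was higher than K326 for 5 of them and lower for 1, again with no share over all such genes at hand. In all, 62 of the 164 members were called in at least 1 of the 3 comparisons, where 3.79% of all genes were.

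The median log2 difference between K326 and GDH88 was 0.41 for the members and -0.06 for all genes tested, and K326 had the higher mean for 110 of the 164 members and for 40.1% of all genes. K326×GDH88 minus GDH88 had a median of 0.49 for the members and -0.12 for all genes, and K326×GDH88 minus K326 had 0.13 and -0.09. Median-ratio scaling shifted the all-gene median of K326×GDH88 minus GDH88 to 0.01 and equal library totals shifted it to -0.21, and the members' median then stood at 0.63 and 0.41.

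**Figure D3:**
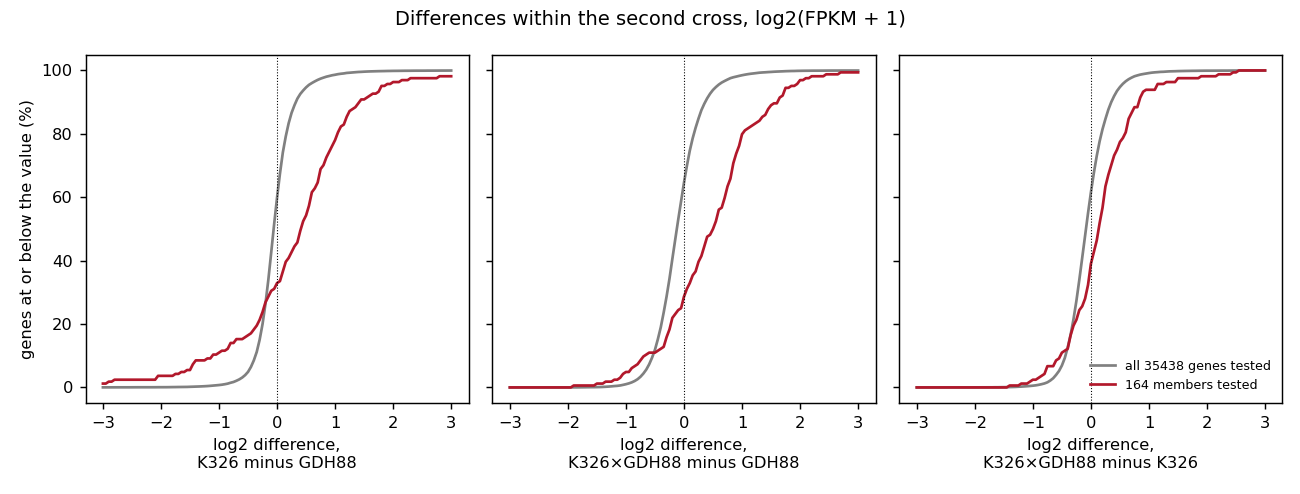
Each panel gives the percentage of genes at or below a log2(FPKM + 1) difference between genotypes of the second cross, in red for the 164 members tested and in grey for all 35438 genes tested. The members' median lies at 0.41 against -0.06 for K326 minus GDH88, at 0.49 against -0.12 for K326×GDH88 minus GDH88, and at 0.13 against -0.09 for K326×GDH88 minus K326.

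In the second cross most members did not show the pattern that defined them in the first. With no fold change limit, the members' share above both parents was still larger than that of all genes. K326×GDH88 lay above both K326 and GDH88 with an adjusted p under 0.05 in both comparisons for 15 of the 164 members, where 4.24% of all genes did, and below both for 1 member, where 9.01% did. At an unadjusted p under 0.05 the counts above both were 30 members and 6.81% of all genes. In single libraries, the 3 K326×GDH88 libraries lay above all 6 parent libraries for 25 of the tested members and below all 6 for 4, where 7.23% and 16.8% of all genes did. By limma with a difference of at least 1 from each parent 0 members lay above both, and 0.217% of all genes did. The same rule of choice applied to the second cross took 77 genes (0.111% of the table), and 0 of them were members. At such small shares of all genes, both counts of 0 say little about the members. Without replicate 2 of K326×GDH88 the number of members above both parents was 7, where 2.79% of all genes lay above both, and under median-ratio scaling it was 27, where 7.28% did.

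A total of 43 members were below 0.5 FPKM in each of the 6 Va116 and GDH94 libraries and are called near-zero in the parents. Among them 11 were listed at 0 in all 6 parent libraries. With a mean of 1 FPKM taken as presence, 25 of the 43 were present in no genotype of the second cross, 7 in all 3, 4 in K326 and K326×GDH88, 3 in GDH88 and K326×GDH88, 2 in K326 only and 2 in GDH88 only. No near-zero member was present in K326×GDH88 while absent from both K326 and GDH88. FPKM came without read counts, so values near 0 carry no counting interval.

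**Figure D4:**
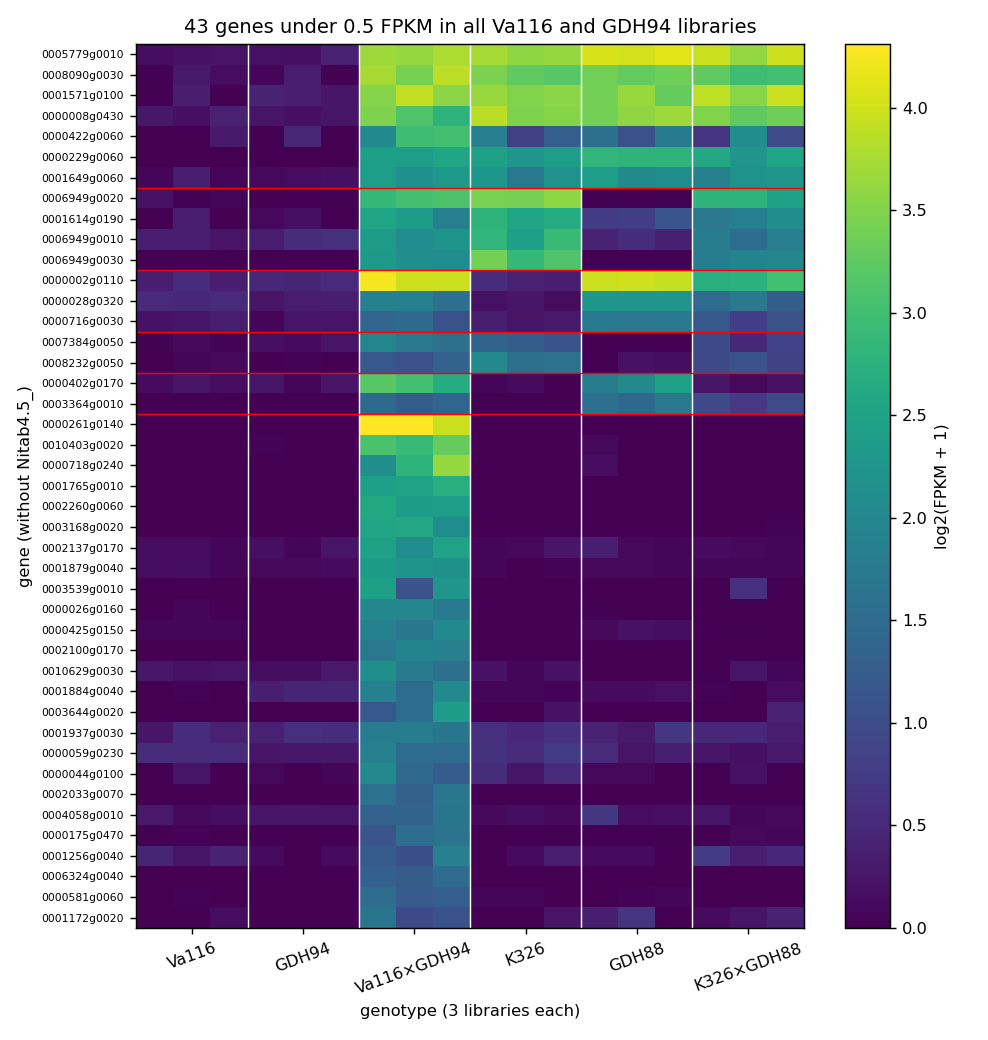
Each row is 1 of the 43 members below 0.5 FPKM in every Va116 and GDH94 library, each column a library, and colour gives log2(FPKM + 1). Red lines separate the sets: present at a mean of 1 FPKM or more in all 3 second-cross genotypes (7 genes), in K326 and K326×GDH88 (4), in GDH88 and K326×GDH88 (3), in K326 only (2), in GDH88 only (2) and in none (25).

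Several members with a great excess over the parents were of this kind. Nitab4.5_0000261g0140, described with an ATP-grasp fold that is typical of carboxylate-amine ligases, held 18.8, 18.7 and 14.6 FPKM in the Va116×GDH94 libraries and was listed at 0 in all 15 others. The GRF-type zinc finger gene Nitab4.5_0000718g0240 stood at 3.37, 5.99 and 11.3 FPKM in Va116×GDH94 and was listed at 0 in all others but 1 library of GDH88 with 0.11. Nitab4.5_0003168g0020, a serine/threonine protein kinase, held 4.79, 5.08 and 3.29 FPKM in Va116×GDH94 and at most 0.03 elsewhere. In each of these genes the Va116×GDH94 libraries stood alone, and in total 5 members were listed at 0 in all 15 other libraries. The uncharacterized Nitab4.5_0010403g0020 was similar, with 7.42, 6.48 and 8.76 FPKM in Va116×GDH94 and at most 0.07 elsewhere. The cyclophilin-type gene Nitab4.5_0001150g0020, for a peptidyl-prolyl isomerase that assists protein folding, was not near zero by this limit but low, at 19.7, 20.3 and 20.5 FPKM in Va116×GDH94 against 0.46 to 0.9 in its parents and 0.36 to 0.93 in the second cross.

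A different set was near zero in Va116 and GDH94 but present in all 9 libraries of the second cross. The glycoside hydrolase family 35 gene Nitab4.5_0005779g0010, whose family comprises beta-galactosidases that trim cell wall and other glycans, held 11.9, 11.4 and 12.7 FPKM in Va116×GDH94 against 0.11 to 0.17 in Va116 and 0.13 to 0.31 in GDH94. The same gene stood at 12.2, 10.9 and 11.4 FPKM in K326, at 15.7, 15.2 and 16.5 in GDH88 and at 14.5, 11.2 and 14.8 in K326×GDH88. Its Va116×GDH94 level therefore fell in the range of K326 and K326×GDH88, and GDH88 was above all of the other genotypes.

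The serine carboxypeptidase gene Nitab4.5_0001571g0100, for a protease of the S10 family, held 10.6, 14.2 and 10.9 FPKM in Va116×GDH94 and at most 0.33 in either parent. It ranged from 10.2 to 11.5 FPKM in K326, from 8.77 to 11.5 in GDH88 and from 10.6 to 14.5 in K326×GDH88, so all 4 genotypes that held it overlapped. Differences within the second cross did not pass the test (limma, adjusted p = 0.58 for K326 against GDH88, 0.20 for K326×GDH88 against K326 and 0.052 against GDH88). The transposase gene Nitab4.5_0000008g0430 behaved alike, with 10.1, 7.72 and 5.88 FPKM in Va116×GDH94, at most 0.32 in Va116 and GDH94, and 8.57 to 13.5 across the 9 second-cross libraries. The uncharacterized Nitab4.5_0008090g0030 held 12.4, 9.72 and 13.7 FPKM in Va116×GDH94, at most 0.27 in its parents and 6.87 to 10 in the second cross.

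Other near-zero members followed a single parent of the second cross. Nitab4.5_0000002g0110, a probable transposase of the Ptta/En/Spm type, held 18.1, 14.8 and 14.6 FPKM in Va116×GDH94 and 0.26 to 0.46 across Va116 and GDH94. It stood at 14.6, 14.96 and 14.3 FPKM in GDH88, at 0.46, 0.32 and 0.25 in K326 and at 5.55, 5.75 and 7.06 in K326×GDH88. The second-cross hybrid lay between its parents with no overlap, lower than GDH88 by 1.14 ± 0.11 and higher than K326 by 2.40 ± 0.11 on the log2 scale (SE, n = 3 each; limma, adjusted p = 9.1e-05 and 1.2e-06). K326 was under 1 FPKM, so a difference from K326 was in part a condition of being tested. All 6 transposon-related members, counting 5 probable transposases and a ribonuclease H-like gene, were near zero in the parents, and Nitab4.5_0000008g0430 and this gene were the only 2 present in the second cross.

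On scaffold 0006949 the 3 successive genes g0010, g0020 and g0030 shared a pattern. Nitab4.5_0006949g0020, with the DUF724 domain of unknown function, held 6.28, 7.24 and 7.58 FPKM in Va116×GDH94 against at most 0.14 in its parents. In the second cross it stood at 9.88, 9.77 and 10.9 FPKM in K326, 0.02, 0 and 0.02 in GDH88, and 6.02, 5.92 and 4.52 in K326×GDH88. K326 exceeded GDH88 by 3.46 ± 0.11 on the log2 scale and K326×GDH88 exceeded GDH88 by 2.67 ± 0.11 (SE, n = 3 each; limma, adjusted p = 3.6e-08 and 6.5e-07).

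Its neighbour Nitab4.5_0006949g0030, a Cpn60-type chaperonin gene of the family that folds organelle proteins, was listed at 0 in all Va116, GDH94 and GDH88 libraries. It held 4.05, 3.40 and 3.26 FPKM in Va116×GDH94, 9.61, 6.31 and 7.72 in K326 and 2.52, 2.87 and 2.91 in K326×GDH88. Nitab4.5_0006949g0010, with DUF724 and Agenet-like domains, was higher in K326 than in GDH88 by 2.29 ± 0.15 and lower in K326×GDH88 than in K326 by 1.00 ± 0.15 on the log2 scale (SE, n = 3 each; limma, adjusted p = 6.5e-06 and 0.0017). In all 3 genes K326 was the highest genotype, and both hybrids were lower.

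The adjacent auxin efflux carrier genes Nitab4.5_0007384g0040 and Nitab4.5_0007384g0050 followed K326 too. Carriers of this family export auxin from the cell and set the direction of its transport. The former held 7.81, 6.89 and 7 FPKM in Va116×GDH94, 6.17, 5.28 and 6.18 in K326, 3.14, 1.99 and 1.9 in K326×GDH88 and at most 0.05 in GDH88, and its parents in the first cross reached 0.61. K326 exceeded GDH88 by 2.76 ± 0.15 for this gene and by 1.25 ± 0.16 for its neighbour on the log2 scale (SE, n = 3 each; limma, adjusted p = 1.3e-06 and 0.0006). The neighbour was low, with means of 1.39 FPKM in K326, 0 in GDH88 and 0.72 in K326×GDH88, and passed the filter through K326 only. Neither gene passed it through GDH88, so a difference from GDH88 was in part a condition of being tested.

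GDH88 was the genotype that carried the chloride channel gene Nitab4.5_0001220g0060, whose protein family moves anions across membranes, although this gene was low rather than near zero in Va116 with 0.88, 0.50 and 0.98 FPKM. Its values were 6.40, 4.62 and 8.95 FPKM in Va116×GDH94, 9.92, 9.19 and 9.55 in GDH88, 7.71, 4.40 and 6.13 in K326×GDH88 and 0, 0 and 0.70 in K326. K326×GDH88 overlapped with neither parent and exceeded K326 by 2.54 ± 0.22 on the log2 scale, while K326 minus GDH88 was -3.14 ± 0.22 (SE, n = 3 each; limma, adjusted p = 7.5e-05 and 7.9e-06). With K326 under 1 FPKM, a difference from K326 was in part a condition of being tested. The zinc-type alcohol dehydrogenase gene Nitab4.5_0000402g0170 was present in GDH88 with 2.56, 3.17 and 4.55 FPKM and in Va116×GDH94 with 8.15, 7.10 and 5.34, but stayed at or under 0.19 in K326, K326×GDH88, Va116 and GDH94.

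Some members stood far higher in a single parent of the first cross than in the other, and higher still in the hybrid. Nitab4.5_0000697g0070, with no description, held 62.1, 59.6 and 62.1 FPKM in Va116, 6.06, 4.88 and 4.20 in GDH94 and 130, 115 and 138 in Va116×GDH94. In the second cross it stood at 89.2, 102 and 117 FPKM in K326, 3.84, 3.67 and 2.61 in GDH88 and 33.7, 41.0 and 38.7 in K326×GDH88. Here the second hybrid fell between its parents, and the difference of 4.57 ± 0.13 between K326 and GDH88 was larger than that of any other member tested (SE, n = 3 each; limma, adjusted p = 1.2e-08).

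The uncharacterized gene Nitab4.5_0006170g0010 showed the mirror image in the second cross. Its values were 7.37, 8.22 and 8.57 FPKM in Va116, 0.04, 0.04 and 0.10 in GDH94 and 18.9, 16.9 and 19 in Va116×GDH94, with 0.07, 0.03 and 0.12 in K326, 6.56, 7.49 and 7.33 in GDH88 and 2.61, 2.77 and 3.32 in K326×GDH88. The GRF-type zinc finger gene Nitab4.5_0006600g0020 held 5.74, 5.76 and 6.10 FPKM in Va116 and 12.8, 10.7 and 15.5 in Va116×GDH94, and was listed at 0 in GDH94, K326 and K326×GDH88 while GDH88 held 1.46, 1.28 and 1.31. In K326×GDH88 the former gene lay between its parents with no overlap, and the latter was at 0 like K326.

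Descriptions came with the study's supplementary gene sheet, which covers only genes that the study had called, so counts of functions among the members have no background. An entry was found for 159 of the 203 members, 33 of them reading unknown, and 44 had none. The unknown entries held 17 of the 43 near-zero members.

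Transcription factors made up 21 members, namely 6 WRKY, 6 AP2/ERF, 4 C2H2 zinc finger, 3 MADS-box or K-box and 2 NAC genes. WRKY, AP2/ERF, C2H2 and NAC factors are best known for responses to stress, wounding, hormones and pathogens, and MADS-box factors for flowering and organ identity. Of the 21, 19 were tested in the second cross, and K326 was higher than GDH88 for 9 and lower for 3. K326×GDH88 was higher than GDH88 for 8 and lower for 0, where 1.4% and 0.934% of all genes were. It was higher than K326 for 2, where 0.708% of all genes were. Over all 164 tested members 36 were higher and 17 lower in K326 than in GDH88, and over all genes 1.2% and 0.635% were, and whether the transcription factors differ from the other members was not tested.

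Of the 5 AP2/ERF members tested, 4 were higher in K326 than in GDH88, where 1.2% of all genes were. The leading AP2/ERF member, Nitab4.5_0000672g0020, which also carries a B3 DNA-binding domain, stood at 42.6, 42.2 and 49.6 FPKM in Va116×GDH94, at 15.01, 16.5 and 16.5 in Va116 and at 18.8, 19.9 and 18.5 in GDH94. It held 29.2, 29.5 and 33.4 FPKM in K326, 14.2, 13.2 and 12.8 in GDH88 and 31.9, 47.1 and 30.5 in K326×GDH88. K326 and K326×GDH88 overlapped, and both lay above all GDH88 libraries, by 1.14 ± 0.14 and 1.36 ± 0.14 on the log2 scale (SE, n = 3 each; limma, adjusted p = 0.00042 and 0.00017).

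A second AP2/ERF member, Nitab4.5_0004560g0020, was 1 of the 15 that lay above both parents in the second cross. It held 4.85, 6.06 and 4.48 FPKM in K326×GDH88, 1.6, 2.6 and 2.87 in K326 and 2.38, 1.78 and 1.55 in GDH88. The hybrid libraries lay above all 6 parent libraries, by 0.88 ± 0.17 over K326 and 1.08 ± 0.17 over GDH88 on the log2 scale (SE, n = 3 each; limma, adjusted p = 0.006 and 0.0017). In Va116×GDH94 the same gene reached 11.8, 12.97 and 13.9 FPKM over 3.49 to 5.91 in its parents.

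The 6 WRKY members all had a higher mean in K326 than in GDH88, with a median log2 difference of 0.69, and only Nitab4.5_0000223g0340 passed the limits for K326 over GDH88. This gene held 6.61, 6.23 and 5.96 FPKM in Va116×GDH94, and in the second cross 5.88, 6 and 6.2 in K326×GDH88, 3.22, 4.76 and 4.87 in K326 and 1.62, 1.6 and 1.54 in GDH88. Libraries of K326×GDH88 lay above those of both parents without overlap, and the gene is 1 of the 15 named above. Nitab4.5_0008962g0010, the most abundant WRKY member, stood at 26.6, 27.0 and 32.7 FPKM in Va116×GDH94, 12.4, 13.3 and 16.8 in K326, 8, 8.51 and 8.1 in GDH88 and 15.2, 16.1 and 14.2 in K326×GDH88. Its difference of 0.71 ± 0.11 between K326 and GDH88 had an adjusted p of 0.0014 in limma but was under the fold limit.

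Each of the 4 C2H2 members was higher than GDH88 in K326 and in K326×GDH88, where 1.2% and 1.4% of all genes were. Nitab4.5_0007620g0010 held 16.2, 11.7 and 11.6 FPKM in Va116×GDH94 and 3.18 to 5.92 in its parents. In the second cross its libraries held 7.43, 11.5 and 16.5 FPKM in K326, 2.16, 1.28 and 2.15 in GDH88 and 11.7, 9.44 and 9.18 in K326×GDH88. The log2 difference from GDH88 was 2.11 ± 0.23 for K326 and 1.96 ± 0.23 for K326×GDH88 (SE, n = 3 each; limma, adjusted p = 0.00018 and 0.00034). Nitab4.5_0000888g0020, also a C2H2 gene, was higher in K326×GDH88 than in GDH88 by 2.09 ± 0.29 (adjusted p = 0.0009).

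The MADS-box members and 1 of the NAC members ran the other way, with GDH88 above K326. Nitab4.5_0004622g0050, with MADS-box and K-box domains, held 46.8, 54.4 and 57.8 FPKM in Va116×GDH94, whereas Va116 held 20.8, 23.0 and 19.7 and GDH94 held 20.2, 21.4 and 20.7. In the second cross it stood at 19.2, 21.4 and 21.2 FPKM in K326, 47.0, 42.9 and 50.8 in GDH88 and 45.04, 54.5 and 39.95 in K326×GDH88. Thus K326 overlapped with the first-cross parents, and GDH88 and K326×GDH88 overlapped with Va116×GDH94.

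K326×GDH88 exceeded K326 for this MADS-box gene by 1.13 ± 0.11 on the log2 scale (SE, n = 3 each; limma, adjusted p = 0.00019) and differed from GDH88 by -0.02 ± 0.11 (adjusted p = 0.90). The other MADS-box gene, Nitab4.5_0001127g0140, and the NAC gene Nitab4.5_0002706g0070 were lower in K326 than in GDH88 by log2 differences of -1.10 ± 0.13 and -1.43 ± 0.14 (SE, n = 3 each; limma, adjusted p = 0.00037 and 8.3e-05). The third K-box member, Nitab4.5_0004911g0050, had a difference of -0.58 ± 0.14, under the fold limit.

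**Figure D5:**
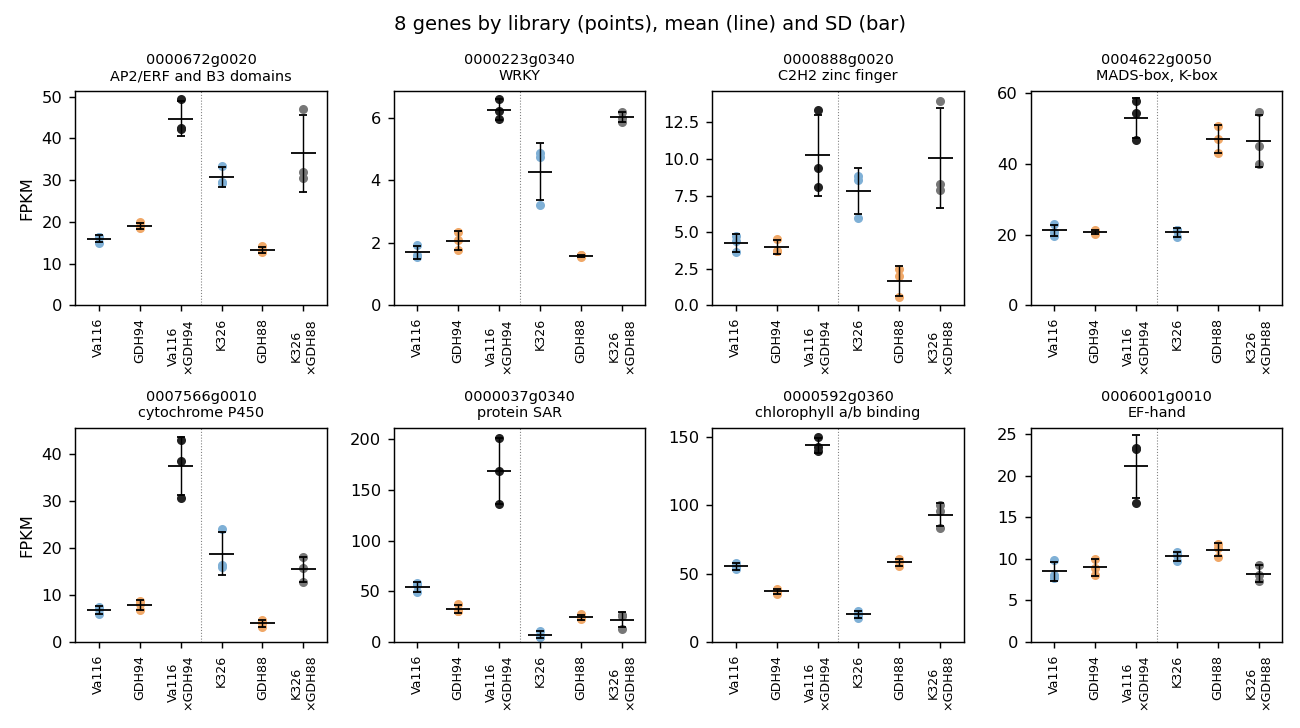
FPKM of 8 members in the 6 genotypes, with a point for each library, a line at the mean and a bar of 1 SD (n = 3), and a dotted line between the crosses. Va116×GDH94 lies above its parents in all 8 panels by the rule of choice, whereas in the second cross the hybrid lies above both parents for the WRKY and chlorophyll a/b-binding genes, below both for the EF-hand gene, and overlaps or falls between its parents for the other 5.

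Specialized metabolism was represented by 13 members, of which 10 were tested. They include 6 cytochromes P450, the oxidases that decorate terpenoids, phenolics, fatty acids and xenobiotics. Of these 6, 3 were higher in K326 and in K326×GDH88 than in GDH88, where 1.2% and 1.4% of all genes were. Of the 10 tested members of the whole group, 3 were higher and 1 was lower in K326 than in GDH88. Whether the P450 genes differ from the other members was not tested. Nitab4.5_0007566g0010 held 42.9, 30.7 and 38.6 FPKM in Va116×GDH94 over 5.98, 7.10 and 7.54 for Va116 and 6.83, 8.15 and 8.70 for GDH94. Its level was 16.3, 16 and 24.1 FPKM in K326, 4.80, 3.99 and 3.29 in GDH88 and 15.7, 18.1 and 12.7 in K326×GDH88. K326 and K326×GDH88 overlapped, and they exceeded GDH88 by 1.97 ± 0.17 and 1.71 ± 0.17 on the log2 scale (SE, n = 3 each; limma, adjusted p = 4.4e-05 and 0.00015).

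The P450 genes Nitab4.5_0006692g0010 and Nitab4.5_0020114g0010 showed the same order, with K326 over GDH88 by 1.75 ± 0.11 and 1.58 ± 0.15 on the log2 scale (SE, n = 3 each; limma, adjusted p = 6.1e-06 and 7.8e-05). For Nitab4.5_0020114g0010 GDH88 was under 1 FPKM, so its difference from GDH88 was in part a condition of being tested. A chalcone synthase-like gene, Nitab4.5_0003185g0100, of the family that opens flavonoid synthesis, was low outside Va116×GDH94. It held 13.5, 10.5 and 12.1 FPKM in this hybrid, 1.03, 1.41 and 1.21 in Va116, 0.21, 0.38 and 0.32 in GDH94 and at most 0.46 in any second-cross library, and was too low to be tested there. The glutathione S-transferase gene Nitab4.5_0009332g0030, for an enzyme that conjugates glutathione to reactive compounds, was the most abundant of this group at 88.9, 70.7 and 91.6 FPKM in Va116×GDH94, against 31.1 to 36.6 in its parents, 34.6 to 45.3 in K326, 23.5 to 27.8 in GDH88 and 37.3 to 43.99 in K326×GDH88.

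Among the defence-related members the gene described as systemic acquired resistance protein SAR, Nitab4.5_0000037g0340, is named for a role in induced immunity. It held 169, 136 and 201 FPKM in Va116×GDH94, with 49.1, 56.1 and 58.1 in its parent Va116 and 37.3, 31.0 and 30.4 in its parent GDH94. Levels in the second cross were below those of both first-cross parents, at 11.1, 5.31 and 5.35 FPKM in K326, 27.5, 23.4 and 22.6 in GDH88 and 13.3, 26.4 and 25.7 in K326×GDH88. GDH88 lay above K326, with a log2 difference of -1.69 ± 0.28 for K326 minus GDH88, and K326×GDH88 exceeded K326 by 1.48 ± 0.28 (SE, n = 3 each; limma, adjusted p = 0.0026 and 0.0053). The major latex protein gene Nitab4.5_0002618g0020, of a family related to pathogenesis-related proteins, held 10 to 14.4 FPKM in Va116×GDH94 and 0.59 to 3.90 in the second cross, with no difference past the limits.

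Of the 12 members grouped by keyword as transporters and channels, 11 were tested. Between K326 and GDH88 2 of them differed, in opposite directions, where 1.84% of all genes differed. The keywords left the auxin efflux carrier genes Nitab4.5_0007384g0040 and Nitab4.5_0007384g0050 outside this group, and both were higher in K326 than in GDH88. The sugar transporter gene Nitab4.5_0003109g0010, of the major facilitator family, held 17.9, 21.5 and 23.3 FPKM in Va116×GDH94 and 7.98 to 9.95 in its parents, with 5.77 to 6.19 in K326, 8.17 to 9.98 in GDH88 and 9.05 to 11.2 in K326×GDH88. The aquaporin gene Nitab4.5_0007733g0020, for a water channel, held 15.8, 15.5 and 15.3 FPKM in Va116×GDH94, and its 15 other libraries ranged from 4.12 to 8.73. In neither gene did any library of the second cross reach the Va116×GDH94 level. Nitab4.5_0005985g0050, a sodium/calcium exchanger gene, was the transporter among the 15 members above both parents in K326×GDH88.

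Cell wall proteins numbered 5. The pectinesterase inhibitor-domain gene Nitab4.5_0001780g0010, whose relatives control the demethylation of pectin, held 48.5, 43.2 and 55.9 FPKM in Va116×GDH94 and 13.3 to 18.5 in its parents. All 9 libraries of the second cross lay between 17.3 and 29.7 FPKM and overlapped between genotypes. The xyloglucan endotransglucosylase gene Nitab4.5_0000404g0110, for an enzyme that loosens and rejoins wall polymers, was higher in K326 than in GDH88 by 1.25 ± 0.13 and in K326×GDH88 than in GDH88 by 1.16 ± 0.13 on the log2 scale (SE, n = 3 each; limma, adjusted p = 0.00012 and 0.00024). Here too GDH88 was under 1 FPKM, so a difference from GDH88 was in part a condition of being tested.

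Ubiquitin and protein turnover had 8 members, all tested, with 2 higher in K326×GDH88 than in GDH88, where 1.4% of all genes were. The F-box gene Nitab4.5_0008177g0020, for a substrate adaptor of a ubiquitin ligase, held 11.8, 10.4 and 12.9 FPKM in Va116×GDH94, 6.44, 7.03 and 8.30 in K326, 2.37, 1.45 and 1.92 in GDH88 and 7.19, 6.39 and 8.02 in K326×GDH88. K326 and its hybrid overlapped and exceeded GDH88 by 1.51 ± 0.14 and 1.5 ± 0.14 on the log2 scale (SE, n = 3 each; limma, adjusted p = 5.1e-05 and 7.6e-05). The rhomboid protease gene Nitab4.5_0008781g0010, for a protease that cuts within membranes, held 24.7 to 29.3 FPKM in Va116×GDH94, 10.8 to 11.9 in its parents and 14.7 to 18.3 in K326×GDH88 against 9.24 to 13.9 in K326 and GDH88.

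After the study's listed photosynthesis genes, as read from its heat map, had been left out, 3 members described with photosynthesis or organelle terms remained. Nitab4.5_0000592g0360, a chlorophyll a/b-binding protein gene of the light-harvesting antenna, held 140, 150 and 142 FPKM in Va116×GDH94, whereas Va116 held 54.8, 58.2 and 53.3 and GDH94 held 39.1, 34.96 and 36.98. In the second cross it stood at 20.1, 22.7 and 17.9 FPKM in K326, 60.5, 59.0 and 55.6 in GDH88 and 83.7, 95.7 and 99.96 in K326×GDH88. Both hybrids lay above both of their parents with no overlap, in the second cross by 2.15 ± 0.10 over K326 and 0.66 ± 0.10 over GDH88 on the log2 scale (SE, n = 3 each; limma, adjusted p = 1.2e-06 and 0.0012).

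The other 2 are described with domains that plastid genomes also encode, and reads from plastid copies cannot be separated from them here. Nitab4.5_0007104g0040, an RNA polymerase Rpb2-type subunit gene, held 152, 148 and 83.0 FPKM in Va116×GDH94, and Nitab4.5_0001439g0110, described with the photosystem II reaction centre, held 22.8, 17 and 11.1. In both the third replicate was the lowest of the 3 hybrid libraries. The second cross ranged from 19.4 to 37.2 FPKM for the former and from 1.11 to 2.36 for the latter. It lay below all Va116 libraries in each case but overlapped with GDH94, which held 35.8 to 47.4 and 1.89 to 2.74 FPKM. No difference within the second cross passed the limits.

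Signalling members were fewer. The EF-hand calcium-binding gene Nitab4.5_0006001g0010 was the only member below both parents in the second cross, at 7.28, 9.30 and 8.01 FPKM in K326×GDH88, 10.5, 10.8 and 9.71 in K326 and 10.2, 11.8 and 11.3 in GDH88, whereas Va116×GDH94 held 23.3, 16.7 and 23.2 over 7.69 to 10.01 in its parents. The differences were -0.31 ± 0.10 and -0.40 ± 0.10 on the log2 scale (SE, n = 3 each; limma, adjusted p = 0.046 and 0.011), and the call was lost in 12 of 17 alternatives: with no filter on low values, with median-ratio scaling, with quantile normalization, in a fit of all 18 libraries and when any library other than replicate 2 of K326×GDH88 was left out. The protein kinase gene Nitab4.5_0004880g0010, whose NAF domain marks kinases that work with calcineurin B-like calcium sensors, lay above both parents in K326×GDH88 with 8.53, 11.2 and 8.36 FPKM against 6.22 to 7.38 in K326 and 3.94 to 4.81 in GDH88.

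Among the 15 members above both parents in K326×GDH88, the 5 with the greatest distance above the mid-parent value came from several groups. Nitab4.5_0001648g0030, with the plant DUF4228 domain, held 25.9, 34.7 and 26.5 FPKM in K326×GDH88, 15.3, 17.2 and 15.8 in K326 and 5.91, 5.28 and 5.70 in GDH88, and in the first cross 34.1, 27.0 and 33.8 in the hybrid over 10.7 to 12.6 in the parents. Both hybrids were thus alike in level and above all of their parents' libraries, and the second exceeded the mid-parent value by 1.49 ± 0.10 on the log2 scale (SE, n = 3; limma, adjusted p = 2.1e-05). The chlorophyll a/b-binding gene followed at 1.41 ± 0.08 (adjusted p = 1.5e-05).

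The other 3 were the protein phosphatase 2C gene Nitab4.5_0000839g0070, of a family that includes negative regulators of abscisic acid signalling, the LEA-14 gene Nitab4.5_0001287g0050, of the late embryogenesis abundant proteins that accumulate under dehydration, and the GNAT acyltransferase gene Nitab4.5_0001237g0010. K326×GDH88 exceeded the mid-parent value by 1.32 ± 0.12, 1.29 ± 0.13 and 1.25 ± 0.19 on the log2 scale (SE, n = 3; limma, adjusted p = 0.00014, 0.00017 and 0.0015). Without replicate 2 of K326×GDH88 the acyltransferase gene stood at 1.11 above the mid-parent value and was no longer called above both parents. For the phosphatase gene the libraries held 15.9, 22.1 and 15.4 FPKM in K326×GDH88 against 8.32 to 11.4 in K326 and 3.96 to 4.56 in GDH88, so that the groups did not overlap. Another DUF4228 gene, Nitab4.5_0000414g0010, held 13.8, 25.6 and 14.9 FPKM in K326×GDH88, 7.72 to 13.6 in K326 and 3.09, 2.72 and 1.58 in GDH88. Its second-cross hybrid exceeded GDH88 by 2.44 ± 0.26 on the log2 scale (SE, n = 3 each; limma, adjusted p = 0.00018) and did not pass the test against K326 (adjusted p = 0.091), so it is not among the 15.

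Members were found on 190 scaffolds of the draft genome whose names form the gene identifiers. On 11 scaffolds there were 2 or more members, 24 members in all, and on 2 scaffolds there were 3. The genes next to members by their number on the scaffold held 324 positions, of which 12 (3.70%) were themselves members, against 0.292% of all genes. The 157 other neighbours with a mean of 1 FPKM or more had a median excess of -0.05 over the higher parent in Va116×GDH94, where that of all such genes was -0.12. The 6 adjacent pairs are the 2 pairs on scaffold 0006949, the auxin carriers, 2 pairs among 3 low genes on scaffold 0003443, and Nitab4.5_0001151g0010 with Nitab4.5_0001151g0020.

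The genes of scaffold 0003443 include the UDP-glucosyltransferase gene Nitab4.5_0003443g0020, for an enzyme that attaches sugars to small molecules, which held 4.12, 3.48 and 2.22 FPKM in Va116×GDH94 and at most 0.77 elsewhere. Nitab4.5_0003443g0030 held 3.33, 3.27 and 2.58 FPKM in Va116×GDH94, was listed at 0 in Va116 and reached at most 0.98 elsewhere. All 3 genes of this scaffold were too low to be tested in the second cross, unlike those of scaffold 0006949.

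The hybrid replicates did not contribute equally to the members. Replicate 3 of Va116×GDH94 was the highest hybrid library for 108 members, replicate 1 for 80 and replicate 2 for 15, whereas among all genes with a mean of 1 FPKM or more the shares were 27.9%, 44.9% and 27.2%. The median range of the 3 hybrid libraries was 0.39 on the log2 scale for the members and 0.24 for all such genes, and 19 members ranged over 1 or more. Without replicate 1, 2 or 3 of the hybrid the rule took 258, 282 and 207 genes, of which 183, 197 and 165 were among the members. The part of this library difference in the members' values was not tested.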

How the data were processed

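Leaf RNA of 18 libraries had been sequenced as paired-end reads. The authors deposited 1 table of FPKM values for 69500 genes, made per the labels with HISAT2, StringTie and RSEM; the study's methods name the tobacco genome of K326, 1 of the 6 genotypes, as the reference for alignment, and versions and the annotation release are not given in the sources used here. The deposited table does not name its unit, and FPKM is an inference: values are not whole, and library totals from 887628 to 1062588 are not the equal totals of TPM. Values have 2 decimals and no counts came with them, so counting error is unknown and whole reads could not be recovered. The study's supplement gives read totals and mapping for the libraries of the first cross only. There, every Va116×GDH94 library had a lower GC content and a lower share of multiply mapped reads than any library of Va116 or GDH94. The part of this library difference in the members' values was not examined. Identifiers are those of the Nitab4.5 gene set, and 0 of them matched the RefSeq gene table at hand, so no gene names, coordinates or sequences were added. Domain descriptions were copied from the study's supplementary sheet, whose fold change and p-value columns were not used.

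Values were transformed to log2(FPKM + 1), which understates changes of low genes. The members and the functional keyword lists were chosen with earlier results of these data known. The 10 genes left out appear in the study's heat map of photosynthesis genes or among its qRT-PCR genes. Identifiers of the heat map were read from its picture, and 1 of them was not among the measured genes. A listed gene may therefore remain among the members. Within the second cross, genes with a mean of at least 1 FPKM in a genotype were fitted with limma 3.58.1 (lmFit, contrasts, eBayes with trend; R 4.3.3), in 1 fit of 9 libraries with no covariates, two-sided, with Benjamini-Hochberg adjustment over all 35438 genes tested. A gene was called at an adjusted p under 0.05 and a log2 difference of at least 1, and above or below both parents at an adjusted p under 0.05 in both comparisons. The procedure was tested on simulated data. The p-values measure the spread among 3 field replicates a genotype, and an exact permutation test of 3 against 3 could not go below 0.1. Genes named in the text were drawn from those with the largest excess in Va116×GDH94 (10), the 2 most abundant of each functional group, the 5 largest differences in each second-cross comparison and above or below both parents, those at the limit of the rule, those on scaffolds with 3 or more members and the 5 most abundant near-zero members; others (such as the remaining transcription factors, P450 and auxin carrier genes) were chosen after their values were seen. Alternatives were a pseudocount of 0.1, no filter or a mean of 5 FPKM, median-ratio scaling, quantile normalization, equal totals, the replicate number as a block, a fit of all 18 libraries, and each library left out in turn.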

Additional observations from a re-analysis of the deposited data

Results flagged for a closer look

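A total of 4 members had all 3 Va116×GDH94 libraries above the 6 libraries of its parents and all 3 K326×GDH88 libraries below the 6 libraries of K326 and GDH88, while 26 of the 203 members lay above in both crosses and 173 overlapped in the second. Among all 35438 genes tested in the second cross 16.8% had K326×GDH88 libraries below both parents and 7.23% above both. The difference between the crosses was not tested. The uncharacterized gene Nitab4.5_0000836g0100 exceeded the mid-parent value by 1.82 on the log2 scale in Va116×GDH94 and stood at -0.71 in K326×GDH88. The Golgi pH regulator-type gene Nitab4.5_0009864g0010 had values of 1.51 and -0.29, the NADPH-dependent FMN reductase-like gene Nitab4.5_0014681g0010 had 1.36 and -0.36, and the EF-hand gene Nitab4.5_0006001g0010 had 1.17 and -0.35.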

How the results depend on the processing

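The number of members differing between K326 and GDH88 (53) ranged from 50 to 57 when each library was left out, that between K326×GDH88 and GDH88 (41) from 40 to 49 and that between K326×GDH88 and K326 (14) from 11 to 16. With a pseudocount of 0.1, 68 members differed between K326×GDH88 and GDH88. The count above both parents (15) was 24 in a fit of all 18 libraries, 27 with median-ratio scaling and 26 after quantile normalization, where 5.78%, 7.28% and 4.84% of all genes were called against 4.24%, and 7 to 22 with a library left out, the lowest without replicate 2 of K326×GDH88 (2.79% of all genes). The count below both (1) was 0 with no filter, median-ratio scaling or quantile normalization, 2 with equal totals and 0 to 1 with a library left out. The rule itself took 471 genes with a pseudocount of 0.1, among them all 203 members. It took 28 with a difference of 2, and 199 to 282 with a library left out. With equal totals it took 164 genes, and 164 of these were members. Median-ratio scaling gave 203 genes, 185 of them members, and quantile normalization gave 198, 179 of them members. Library totals ran from 984296 to 1014325 in Va116×GDH94, above those of Va116 (945893 to 953051) and GDH94 (910305 to 914581). The causes were not tested. With the replicate number as a block 53, 41 and 14 members were called and 19 lay above both parents; same-numbered libraries correlated from -0.034 to 0.224 in their deviations, so the number is not shown to pair them. For 21 named results under these alternatives, no direction was reversed in 357 recalculations and 13 lost the call, 12 for Nitab4.5_0006001g0010 and 1 for Nitab4.5_0001237g0010. These results were picked for their size in the main fit and recalculated from the same libraries, so reversals were unlikely from the start. They do not speak for the other members.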
